A study of Mus musculus with 23 samples.

Results

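The myosin light chain and myosin-binding protein genes of skeletal muscle were followed across all mice of a study of corticosterone, the main glucocorticoid hormone of mice, in quadriceps muscle. The set holds 9 genes, Myl1, Myl2, Myl3, Myl4, Mylpf, Mylk2, Mybpc1, Mybpc2 and Mybph, which were listed by name and matched by symbol to 1 Ensembl ID each among the 55573 gene IDs of the count table. The study sequenced the messenger RNA of quadriceps from 23 male and female C57Bl6 mice, given as C57BL/6J and 8 to 10 weeks of age in the study's methods. All mice carried a slow-release pellet under the skin for 14 days and were fasted for 5 hours before tissue collection. The pellet held 50 mg corticosterone with 50 mg cholesterol in 6 males and 5 females, and 100 mg cholesterol alone (vehicle) in 6 males and 6 females. Mice are named here by F or M for their sex and by their number in the labels. The questions were which of these genes differed between corticosterone and vehicle in each sex, and whether the response differed between the sexes.

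Each myosin molecule of a muscle fiber carries an essential and a regulatory light chain on the neck of each of its heads, and light chains come in fast and slow forms that accompany the fast and slow heavy chains. Myl1 encodes the essential light chain of fast fibers and yields a longer and a shorter form from separate start sites. Myl3 encodes its counterpart in slow fibers and heart ventricle, and Myl4 the form of the heart atria and of embryonic muscle. Mylpf encodes the regulatory light chain of fast fibers, Myl2 that of slow fibers and heart ventricle, and Mylk2 the calmodulin-dependent kinase that phosphorylates the regulatory light chain in skeletal muscle. Mybpc1 and Mybpc2 encode the slow and the fast skeletal forms of myosin-binding protein C, which ties the thick filament together and modulates the myosin heads, and Mybph encodes the smaller relative myosin-binding protein H.

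The promoters of 3 of these genes are shown because the results turn on them: Myl1, lower with corticosterone in both sexes, Mybph, higher with corticosterone in males, and Mylpf, the fast partner of Myl1 that passed the test in neither sex. RefSeq windows (GRCm38.p6) from 250 bases before to 50 bases from the start site were at hand for 8 of the 9 genes. They lie at chr1:66945007-66945306 on the minus strand for Myl1, chr1:134193198-134193497 on the plus strand for Mybph and chr7:127211358-127211657 on the plus strand for Mylpf, and are given 5′ to 3′ along the gene. Capitals mark E-boxes (CANNTG, the site of myogenic basic helix-loop-helix factors, the same on both strands) and the hexamer of the glucocorticoid receptor (TGTTCT, or AGAACA on the other strand).
Myl1: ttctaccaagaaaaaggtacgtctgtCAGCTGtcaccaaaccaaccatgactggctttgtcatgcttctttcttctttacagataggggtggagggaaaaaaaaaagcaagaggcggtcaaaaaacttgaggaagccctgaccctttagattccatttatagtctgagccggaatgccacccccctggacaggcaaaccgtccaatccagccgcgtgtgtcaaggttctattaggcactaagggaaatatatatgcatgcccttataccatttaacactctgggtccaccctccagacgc
Mybph: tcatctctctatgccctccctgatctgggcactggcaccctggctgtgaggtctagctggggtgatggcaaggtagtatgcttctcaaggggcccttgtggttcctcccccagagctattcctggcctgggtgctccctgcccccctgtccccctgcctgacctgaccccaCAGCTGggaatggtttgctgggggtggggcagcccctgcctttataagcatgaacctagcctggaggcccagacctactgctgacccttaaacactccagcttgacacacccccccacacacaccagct
Mylpf: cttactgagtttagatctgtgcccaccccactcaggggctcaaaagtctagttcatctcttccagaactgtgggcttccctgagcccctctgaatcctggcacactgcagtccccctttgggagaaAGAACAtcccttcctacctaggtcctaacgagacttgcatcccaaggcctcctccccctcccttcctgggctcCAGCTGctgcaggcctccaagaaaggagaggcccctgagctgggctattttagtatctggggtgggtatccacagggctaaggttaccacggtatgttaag
Each window held 1 E-box of the letters CAGCTG, which began 224 bases before the start of Myl1, 79 before that of Mybph and 51 before that of Mylpf. A receptor hexamer was found 124 bases before the start of Mylpf, and the other windows printed here held none of these letters. Over 32851 promoter windows of the same length, 72.3% held an E-box and 19% a receptor hexamer, so that such matches were common. The letters CATTCC of the MCAT element, searched on both strands and held by 14.7% of all windows, began 80 bases before the start of Myl1 and, next to its E-box without overlap, 73 before that of Mybph. TATAAA, on either strand and in 13.6% of all windows, occurred 95 bases before the start of Myl1 and 39 before that of Mybph. No window of the 8 genes held the MEF2 site, which 3.19% of all windows held. The windows of Myl2 were set on starts 8227 and 7762 bases from its nearest GENCODE transcript start. They do not cover the promoter of the annotated Myl2 transcripts. The start that RefSeq gives for Myl1 lies 87 bases from the nearest GENCODE transcript start, whereas those of Mybph and Mylpf coincide with one. Only this window was at hand for Myl1, whose longer and shorter forms have separate start sites, so not every start was searched. These matches describe letters in the windows, and binding was not measured.

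Sequencing depth was even. Reads counted on genes ranged from 20904150 to 21984477 per mouse, and all 9 genes passed the filter on low counts. Levels are given as CPM, counts on a gene scaled to a common library size after TMM normalization. As to the tissue, the summed CPM of the muscle identity markers Acta1, Ckm, Des and Mb ranged from 40412 in F10 to 105046 in M4. The heart muscle markers summed to 0.705 to 9.34 CPM over the mice, and 5 of the 6 were too low to be tested. The hepatocyte markers, which quadriceps should lack, summed to over 1000 CPM in 5 mice, 2319 in M8, 2278 in F10, 1373 in M9, 1356 in M12 and 1034 in F6, of which only M9 had vehicle, and to at most 291.7 CPM in the others. The adipocyte markers had a median sum of 784 CPM with vehicle and 2978 with corticosterone in females, with overlapping ranges (275 to 2449 and 258 to 6261), and of 703 and 406 CPM in males. In bulk tissue, fewer fibers of a type and less RNA per fiber cannot be told apart.

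Among vehicle-treated mice of both sexes, the fast light chains led the set. Compared per kilobase of exon (CPM per kb over the union of a gene's exons, mean ± SD, n = 12), Mylpf stood at 10336 ± 1675 and Myl1 at 7061 ± 1010. The binding protein Mybpc2 followed at 1521 ± 308 and the kinase Mylk2 at 391 ± 97.2. Mylpf lay above Myl1 in 12 of 12 mice, although their ranges over mice overlapped, and the ranges of Myl1, Mybpc2 and Mylk2 were apart. With the longest annotated transcript as the length, the means of Mylpf and Myl1 were 14330 and 13535, and Mylpf was the higher in 6 of 12 mice only, so the order of these neighbours depends on the length used. The next genes per kb of exon were Mybpc1 at 286 ± 195, Mybph at 204 ± 156, Myl2 at 120 ± 172 and Myl3 at 117 ± 162, whose ranges overlapped from each to the next and whose order could not be fixed. Mylk2 and Mybpc1 overlapped also. Myl4 was lowest at 0.858 ± 0.229, and lay below Myl3 in 11 of 12 mice. By CPM alone, Myl1 ranked 10 and Mylpf 14 among all tested genes in vehicle-treated mice.

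The 9 genes together took a median of 3.52% of the gene counts in vehicle-treated females and 3.39% in vehicle-treated males. With corticosterone the median was 2.35% in females, with a range of 1.68% to 2.91%, and 2.60% in males, with a range of 2.28% to 3.0%. These ranges lay below those of the vehicle groups, whose lowest values were 3.19% in females and 3.11% in males. Myl1 alone took 1.40% ± 0.0914 (SD, n = 6) of the counts in vehicle-treated females and 0.428% ± 0.207 (n = 5) in corticosterone-treated females, and 1.54% ± 0.211 (n = 6) against 0.372% ± 0.107 (n = 6) in males.

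**Figure D1:**
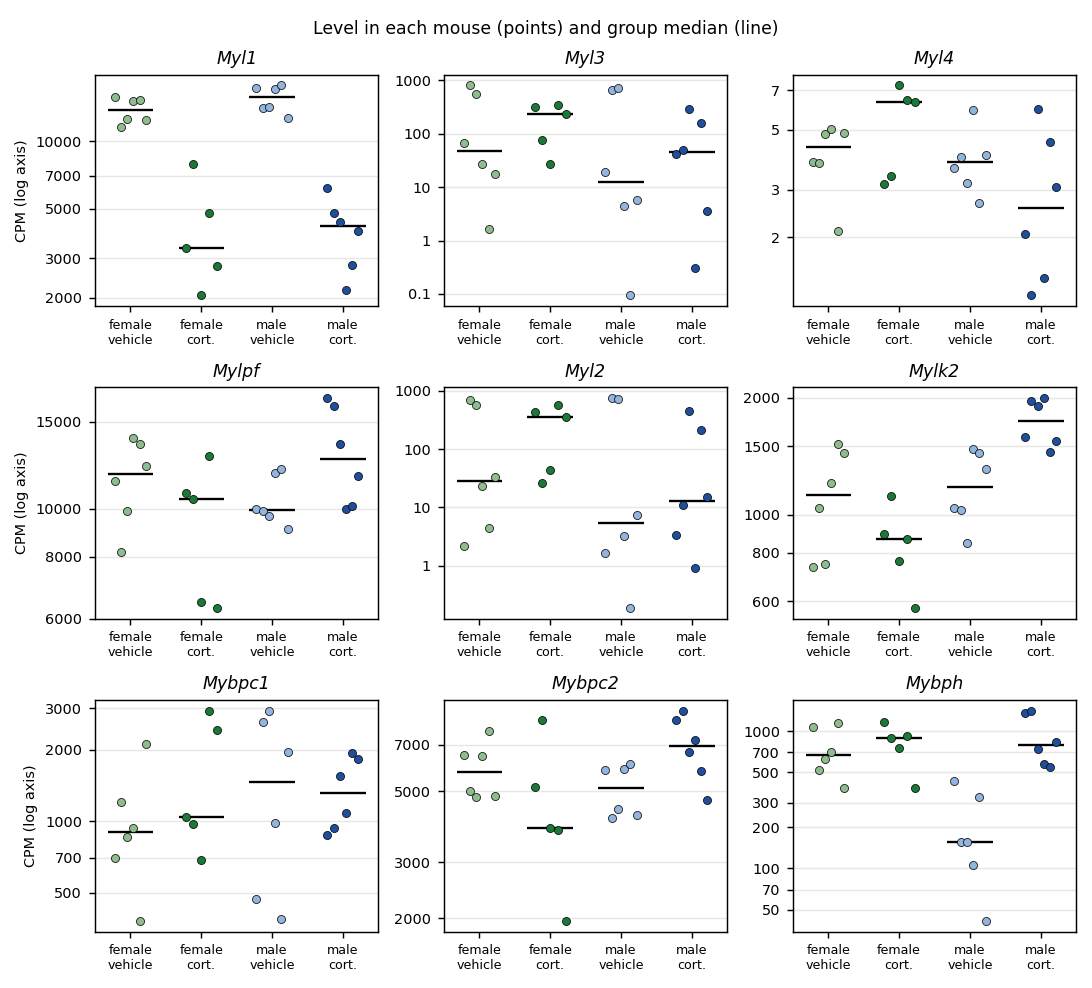
Level of each of the 9 genes in CPM (log axis, scaled for each gene) in every mouse (points), by sex and treatment, with the median of each group as a line. Myl1 lies lower in all corticosterone-treated mice of both sexes, Mybph is lowest in vehicle-treated males, and Myl2 and Myl3 spread widely within every group.

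Of the 9 genes, 2 passed the test in males, Myl1 lower and Mybph higher upon corticosterone treatment, and 1 passed in females, Myl1 lower. The test was edgeR's quasi-likelihood test with a threshold of 0.01 on p-values adjusted over 13049 genes (Benjamini-Hochberg). Of all tested genes, 26.3% were called in males (13.2% higher and 13.1% lower) and 13.4% in females (6.0% lower), so that the number of genes called in the set was close to the background in both sexes. The median log2 fold change of the 9 genes was -0.18 in males and -0.30 in females, beside -0.02 and 0.04 for all tested genes. The interaction of sex and treatment, the difference between the responses of males and females, called 0 of the 9 genes with edgeR's quasi-likelihood test, beside 0.690% of all genes. Of the 9, 4 had an unadjusted p under 0.05 for the interaction (Mylk2, Mybph, Mylpf and Mybpc2), DESeq2 called Mylk2, and limma-voom called 0.

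**Figure D2:**
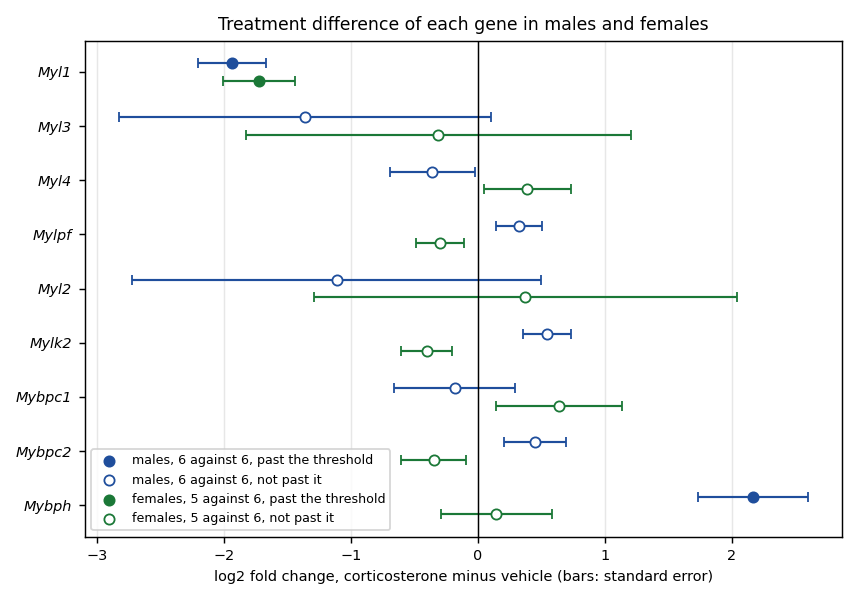
Log2 fold change of each gene between corticosterone and vehicle, in males (blue) and females (green), with its standard error. Filled points passed the adjusted p threshold of 0.01. Myl1 lies near -1.9 in males and -1.7 in females, Mybph at 2.16 in males and 0.14 in females, and Mylpf, Mylk2 and Mybpc2 lie above 0 in males and below it in females without passing the test.

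Myl1 (ENSMUSG00000061816, chr1:66924295-66945404, minus strand), the fast essential light chain, was lower with corticosterone in both sexes. In males it ranged from 12634 to 17792 CPM with vehicle, with a median of 15695, and from 2166 to 6189 with corticosterone, with a median of 4172. In females it ranged from 11622 to 15694 CPM with vehicle, with a median of 13799. With corticosterone its levels were 3346, 7890, 2052, 4803 and 2776 CPM (F2, F4, F6, F8, F10). Every corticosterone-treated mouse lay below every vehicle-treated mouse of its sex, and F4 was the nearest to the vehicle range. Groups lay apart in this direction for 11.1% of all tested genes in males and 4.34% in females. Myl1 was 3.84-fold lower in males, a log2 fold change of -1.94 ± 0.27 (SE, adjusted p = 9.24e-06 by edgeR's quasi-likelihood test, Benjamini-Hochberg adjusted, lower in 6 of 6 mice). In females it was 3.30-fold lower, a log2 fold change of -1.72 ± 0.28 (SE, adjusted p = 0.000221 by the same test, lower in 5 of 5 mice). Only 3.65% of all tested genes were called lower in both sexes, whose comparisons share no mice. With the adipocyte markers as a covariate, the log2 fold change of Myl1 was -1.94 in males and -1.53 in females, and without the 5 mice with the highest hepatocyte markers it was -1.72 and -1.38, and it was called in each (adjusted p from 5.27e-06 to 0.00279 by edgeR).

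The size of the Myl1 decrease did not differ detectably between the sexes. The male response minus the female response was -0.22 on the log2 scale, with a 95% interval from -0.99 to 0.56 and an adjusted p of 0.711 by edgeR's quasi-likelihood test. Males and females did not differ detectably with vehicle (log2 difference, males minus females, 0.17, interval -0.36 to 0.71) or with corticosterone (-0.04, interval -0.61 to 0.52). Among the 88 tested genes with a mean over 1000 CPM, 9 were called lower in males and 6 in females, and 0 had a lower log2 fold change than Myl1 in either sex.

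Reads of Myl1 can be split with a copy. Mylf-ps (ENSMUSG00000113178), a processed pseudogene of 421 bases, matched a Myl1 transcript at 418 bases (99.3%). Its counts, 151 to 1382 per mouse, were 0.278% to 0.392% of those of Myl1, which were 49089 to 378604, and it had log2 fold changes of -1.95 ± 0.27 (SE) in males and -1.69 ± 0.28 in females. With these counts added to Myl1, a setting chosen after seeing the data, its log2 fold changes stayed at -1.94 and -1.72. Under the study's unique assignment, reads that fit both places equally well were not counted, and their number is unknown. Counts per gene also join the longer and the shorter form of Myl1, which were not told apart.

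Myl3 (ENSMUSG00000059741, chr9:110741861-110769798, plus strand), the slow essential light chain, varied widely between mice of 1 group and passed no test. With vehicle it ranged from 1.66 to 813 CPM in females, with a median of 46.7, and from 0.0940 to 719 in males, with a median of 12.4. With corticosterone its levels were 309.9, 76.4, 27.4, 342 and 233 CPM (F2, F4, F6, F8, F10), and ranged from 0.309 to 286 in males, with a median of 45.4. The high mice were F3 and F5 among vehicle-treated females and M3 and M5 among vehicle-treated males, and the treated and vehicle ranges overlapped in both sexes. The log2 fold change was -1.36 ± 1.46 (SE) in males and -0.31 ± 1.51 in females. The mean difference of log2 CPM over mice had the opposite sign in both sexes (0.33 in males and 1.36 in females, p = 0.894 and 0.437 by two-sided exact permutation tests), so no direction is given.

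Myl4 (ENSMUSG00000061086, chr11:104550663-104595753, plus strand), the atrial and embryonic essential light chain, was low, with 22 to 181 counts per mouse. Over all mice it lay between 1.22 and 7.31 CPM. With corticosterone its levels were 3.14, 3.37, 7.31, 6.45 and 6.32 CPM (F2, F4, F6, F8, F10), and ranged from 1.22 to 5.95 in males, with a median of 2.55. The vehicle medians were 4.32 CPM in females and 3.78 in males, and ranges of treated and vehicle-treated mice overlapped in both sexes. The log2 fold change was -0.36 ± 0.33 (SE) in males and 0.39 ± 0.34 in females. Neither passed edgeR's quasi-likelihood test (adjusted p = 0.411 and 0.427).

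Mylpf (ENSMUSG00000030672, chr7:127208890-127214298, plus strand), the fast regulatory light chain, did not follow Myl1 down. In males it ranged from 9125 to 12065 CPM with vehicle, with a median of 9940.2, and from 9994 to 16780.4 with corticosterone, with a median of 12600.3. In females it ranged from 8197 to 13896 CPM with vehicle, with a median of 11794, and with corticosterone its levels were 10759.8, 10487, 6476, 12796 and 6293 CPM (F2, F4, F6, F8, F10). F6 and F10 lay below all vehicle-treated females, while the other 3 lay within their range, and M2, M4 and M6 lay above all vehicle-treated males. The log2 fold change was 0.32 in males, with a 95% interval from -0.05 to 0.70, and -0.30 in females, with an interval from -0.70 to 0.10. Both intervals lie above the log2 fold changes of Myl1. The adjusted p of Mylpf was 0.164 in males and 0.261 in females, and that of the interaction 0.111, by edgeR's quasi-likelihood test.

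The ratio of Myl1 to Mylpf within a mouse shows this divergence without reference to the library size. Taken from levels per kb of exon, it was 0.622 ± 0.0847 (SD, n = 6) in vehicle-treated females and 0.762 ± 0.0640 (n = 6) in vehicle-treated males. With corticosterone it was 0.225 ± 0.0936 (n = 5) in females and 0.155 ± 0.0276 (n = 6) in males. The highest corticosterone-treated mouse, F4 at 0.385, lay below the lowest vehicle-treated mouse, F11 at 0.519, so the treatments did not overlap in either sex. F4 was the highest of the corticosterone-treated females, and the other 4 lay between 0.159 and 0.226. With lengths of the longest transcripts, the means were 0.860 and 1.05 with vehicle and 0.311 and 0.215 with corticosterone, for females and males. The ratio was chosen after the values were seen and was given no test.

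**Figure D3:**
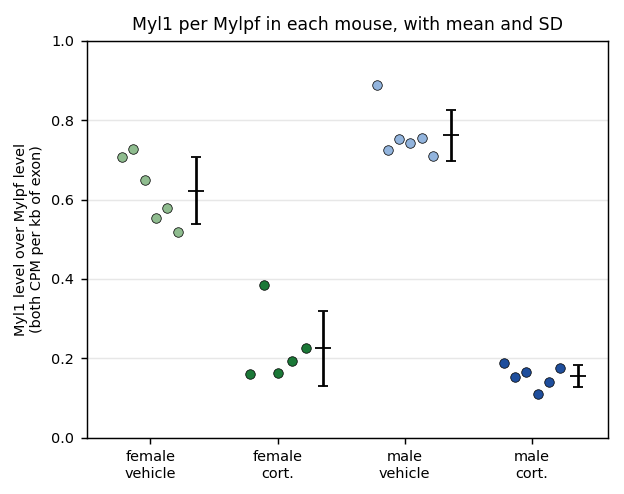
Ratio of the Myl1 level to the Mylpf level, both in CPM per kb of exon, in each mouse (points) by sex and treatment, with the mean and SD of each group beside the points. All corticosterone-treated mice lie at or below 0.385 and all vehicle-treated mice at or above 0.519.

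Myl2 (ENSMUSG00000013936, chr5:122100951-122113472, plus strand), the slow regulatory light chain, was among the most variable genes of the whole table. With vehicle it ranged from 2.20 to 699 CPM in females, with a median of 28.4, and from 0.188 to 752 in males, with a median of 5.40. With corticosterone its levels were 434, 26.2, 43.8, 569 and 357 CPM (F2, F4, F6, F8, F10), and ranged from 0.927 to 443 in males, with a median of 13.0. Mice far apart were found in every group, and the ranges of treated and vehicle-treated mice overlapped. The log2 fold change was -1.11 ± 1.61 (SE) in males and 0.37 ± 1.66 in females, neither past the test. The mean difference of log2 CPM over mice was 0.55 in males, of the opposite sign, and 2.05 in females. Its p was 0.81 and 0.275 by two-sided exact permutation tests, so no direction is given. The SD of log2 CPM within groups was 3.62 for Myl2, which only 4 of the 13049 tested genes exceeded, and 3.57 for Myl3, which 6 exceeded, against a median of 0.241 over all tested genes.

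High Myl2 and Myl3 occurred in the same mice as high slow fiber genes. Myl2 was over 100 CPM in 9 mice, namely 2 of 6 vehicle-treated females, 3 of 5 corticosterone-treated females, 2 of 6 vehicle-treated males and 2 of 6 corticosterone-treated males, and at most 43.8 CPM in the other 14. These were F2, F3, F5, F8, F10, M3, M5, M6 and M10, and the same 9 mice were over 100 CPM for Myl3 and for Myh7, the slow myosin heavy chain. The vehicle-treated mice among them carried the numbers 3 and 5 in both sexes, whereas the corticosterone-treated ones shared only the number 10. Of the other slow genes, Tnnt1 and Tnnc1, which encode slow troponins, were over 100 CPM in 8 of these 9 mice, and Tnni1, which encodes slow troponin I, in 6. The sum of 8 slow fiber markers ranged from 67.2 to 5235 CPM over vehicle-treated females, 211 to 3054 over corticosterone-treated females, 72.1 to 4863 over vehicle-treated males and 71.7 to 2336 over corticosterone-treated males. EdgeR's quasi-likelihood test, DESeq2 and limma-voom each called 0 of these 8 markers in either sex, and 1 had an unadjusted p under 0.05 in each sex with edgeR. The 4 with the smallest p were Casq2, a calcium-binding protein of the reticulum (log2 fold change 1.42 ± 0.61 SE in males and 1.5 ± 0.63 in females), Tpm3 (-1.67 ± 1.11 and -0.56 ± 1.14), Myoz2 (0.54 ± 1.06 and 1.42 ± 1.11) and Atp2a2 (-1.13 ± 1.07 and -0.26 ± 1.12).

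**Figure D4:**
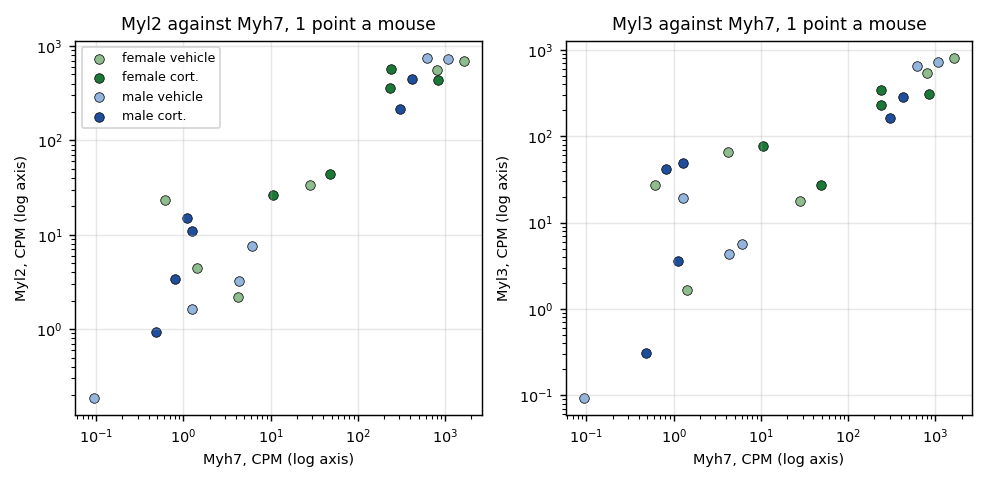
Level of Myl2 (left) and Myl3 (right) against that of Myh7 in each mouse (points, coloured by sex and treatment), all in CPM on log axes. The 9 mice with over 100 CPM of Myh7 are those with over 100 CPM of Myl2 and of Myl3, and they come from all 4 groups.

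Within the pairs of slow and fast genes with the same role, the slow partner was the minor one for the light chains. By levels per kb of exon, Myl3 made up 0.000536% to 8.59% of Myl1 and Myl3 together over the mice, and Myl2 made up 0.000848% to 4.44% of Mylpf and Myl2 together. The mean share of Myl3 was 5.09% ± 3.66 (SD, n = 5) in corticosterone-treated females and 1.94% ± 2.81 (n = 6) in vehicle-treated females, and 2.27% ± 2.85 (n = 6) against 1.59% ± 2.39 (n = 6) in males, beside a Myl1 level that was lower with corticosterone. For binding protein C the slow share was larger. Mybpc1 made up 24.5% ± 18.3 (n = 5) of Mybpc1 and Mybpc2 together in corticosterone-treated females and 12.8% ± 7.68 (n = 6) in vehicle-treated females, and 14.4% ± 6.87 (n = 6) against 19.6% ± 13.7 (n = 6) in males, with a highest value of 49.8% in F10. Ranges overlapped between treatments for all 3 shares.

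Mylk2 (ENSMUSG00000027470, chr2:152911352-152923068, plus strand), the skeletal light chain kinase, differed between the sexes under corticosterone. In males it ranged from 845 to 1473 CPM with vehicle, with a median of 1178, and from 1454 to 1996 with corticosterone, with a median of 1739. In females it ranged from 735 to 1517 CPM with vehicle, with a median of 1124, and with corticosterone its levels were 894, 1119, 763, 864 and 575 CPM (F2, F4, F6, F8, F10). All corticosterone-treated males lay above all corticosterone-treated females, while the vehicle groups overlapped broadly. Males were 2.06-fold higher than females with corticosterone, a log2 difference of 1.05 ± 0.20 (SE, adjusted p = 0.00063 by edgeR's quasi-likelihood test, Benjamini-Hochberg adjusted, 6 of 6 males above the female mean). This was the only gene of the set called in that comparison, which called 23.3% of all tested genes and 9.31% as higher in males, with groups apart in that direction for 6.87%. With vehicle, the difference was 0.09 ± 0.19 on the log2 scale (adjusted p = 0.90 by edgeR). Without the 5 mice with the highest hepatocyte markers, 4 of them corticosterone-treated, the difference with corticosterone was 0.88 and was not called (adjusted p = 0.0362 by edgeR).

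The treatment response of Mylk2 within each sex did not pass the threshold of 0.01. It was 0.55 ± 0.19 (SE) on the log2 scale in males, where 6 of 6 treated mice lay above the vehicle mean (adjusted p = 0.0255 by edgeR's quasi-likelihood test), and -0.40 ± 0.20 in females, where 4 of 5 lay below it (adjusted p = 0.138). The 2 responses differed by 0.95 ± 0.27 on the log2 scale, with a 95% interval from 0.38 to 1.52. The adjusted p of this interaction was 0.0319 by edgeR and 0.00717 by DESeq2. At a threshold of 0.05, which 39.8% of all genes met in males and 12.6% for the interaction, Mylk2 would be called in both. Without M8 and F10, the corticosterone-treated mice with the highest hepatocyte markers, the adjusted p of the interaction was 0.0918 by edgeR.

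Mybpc1 (ENSMUSG00000020061, chr10:88518279-88605152, minus strand), slow binding protein C, passed no test. In males it ranged from 388 to 2920 CPM with vehicle, with a median of 1468, and from 877 to 1947 with corticosterone, with a median of 1314. In females it ranged from 379 to 2119 CPM with vehicle, with a median of 901, and with corticosterone its levels were 1044, 970.4, 688, 2905 and 2434 CPM (F2, F4, F6, F8, F10). Treated and vehicle-treated mice overlapped in both sexes, and F8 and F10, high in Myl2 also, were the highest females. F2, F3 and F5, likewise high in Myl2, had 1044, 1200 and 861 CPM of Mybpc1. F11 had 2119 CPM of Mybpc1 with only 33.4 CPM of Myl2. The log2 fold change was -0.18 ± 0.48 (SE) in males and 0.64 ± 0.50 in females, with adjusted p of 0.786 and 0.364 by edgeR's quasi-likelihood test.

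Mybpc2 (ENSMUSG00000038670, chr7:44501699-44524656, minus strand), fast binding protein C, lay on opposite sides of the vehicle level in males and females without passing the test. In males it ranged from 4131 to 6093 CPM with vehicle, with a median of 5109, and from 4706 to 8959 with corticosterone, with a median of 6935. In females it ranged from 4795 to 7744 CPM with vehicle, with a median of 5739, and with corticosterone its levels were 5163, 8359, 3843, 3789 and 1958 CPM (F2, F4, F6, F8, F10). F6, F8 and F10 lay below all vehicle-treated females and F4 above them all. The log2 fold change was 0.45 ± 0.24 (SE, adjusted p = 0.144 by edgeR) in males and -0.35 ± 0.25 (adjusted p = 0.326) in females. Males and females with corticosterone differed by 0.59 ± 0.26 (adjusted p = 0.0711 by edgeR), and without F4 this difference was called.

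Mybph (ENSMUSG00000042451, chr1:134193448-134201232, plus strand), binding protein H, was higher with corticosterone in males, from a vehicle level that lay below that of females. In males it ranged from 41.2 to 436 CPM with vehicle, with a median of 155, and from 552 to 1407 with corticosterone, with a median of 789.9. In females it ranged from 385 to 1152 CPM with vehicle, with a median of 669.6, and with corticosterone its levels were 1161, 893, 757, 920.2 and 382 CPM (F2, F4, F6, F8, F10). All treated males lay above all vehicle-treated males, as for 10.8% of all tested genes, whereas the female groups overlapped. Mybph was 4.48-fold higher in males with corticosterone, a log2 fold change of 2.16 ± 0.43 (SE, adjusted p = 0.000491 by edgeR's quasi-likelihood test, Benjamini-Hochberg adjusted, higher in 6 of 6 mice). In females the log2 fold change was 0.14 ± 0.44, with a 95% interval from -0.76 to 1.05 (adjusted p = 0.84 by edgeR).

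The difference between these Mybph responses was 2.02 ± 0.61 on the log2 scale, with a 95% interval from 0.75 to 3.29 and an adjusted p of 0.0376 by edgeR's quasi-likelihood test, which does not pass 0.01. With corticosterone the sexes did not differ detectably, by 0.15 ± 0.44 on the log2 scale. With vehicle, males were lower than females by a log2 difference of -1.87 ± 0.43 (adjusted p = 0.02 by edgeR, 0.000795 by DESeq2 and 0.00828 by limma-voom). In that comparison edgeR's quasi-likelihood test called 0 of the 9 genes, beside 0.958% of all genes, and Mybph was the only one with an unadjusted p under 0.05, while DESeq2 and limma-voom each called it. None of the 9 had vehicle groups of the sexes that lay apart, beside 2.55% of all genes, and 2.37% of all genes passed 0.05 there. Vehicle-treated males spread widely, from 41.2 CPM in M11 and 105 in M7 to 436 in M1, and without M1 the difference was called. Whether the samples of males and females were processed together is not stated, and a batch and sex cannot be told apart in comparisons between the sexes. The exons of Mybph overlap those of Adora1 on the opposite strand, and counting was by strand.

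Of 6 tested denervation markers, Myog, which encodes myogenin, and Gadd45a rose with corticosterone in males, by 1.76 ± 0.28 (SE) and 1.06 ± 0.22 on the log2 scale (adjusted p = 5.05e-05 and 0.000626 by edgeR's quasi-likelihood test). In females 0 of these 6 markers were called by edgeR, DESeq2 or limma-voom, and 2 had an unadjusted p under 0.05 with edgeR. Of all tested genes, 13.2% were called higher in males. The other tested markers were not called in males: Chrna1 (0.33 ± 0.32 SE), Ncam1 (0.38 ± 0.25), Runx1 (0.14 ± 0.39) and Chrnd (-0.57 ± 0.39). The summed CPM of the denervation markers ran from 39.6 to 53.7 in vehicle-treated males and from 74.0 to 98.1 in corticosterone-treated males, and from 70.3 to 130.3 and 62.9 to 73.3 in the female groups. In the male sums the called genes weighed most, with means rising from 20.8 to 43.4 CPM for Gadd45a and from 3.48 to 11.8 for Myog. Of 4 tested regenerating fiber markers, edgeR called Myog higher in males and Pax7, a satellite cell gene, lower in females (log2 fold change -1.84 ± 0.32 SE). In males Pax7 had a log2 fold change of -0.92 ± 0.30 (adjusted p = 0.0168 by edgeR), and DESeq2 and limma-voom called it. All treated males lay below all vehicle-treated males for Pax7, as for 11.1% of all tested genes. The part of these markers in the level of Mybph was not tested.

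Of 23 listed relatives in the thick filament and in light chain phosphorylation, 19 were tested, and edgeR's quasi-likelihood test called 5 in males and 2 in females. Of all tested genes it called 26.3% in males and 13.4% in females, so these counts were close to the background. In males 4 rose, namely Myom1 and Myom2, which encode M-band proteins, Ppp1cb, a catalytic subunit of myosin phosphatase, and Ppp1r12a, a targeting subunit, and Calm2, a calmodulin gene, fell. The related Ppp1r12b, at a mean of 270 CPM in vehicle-treated males against 28.1 for Ppp1r12a, was not called there (0.32 ± 0.12 SE, adjusted p = 0.0327 by edgeR). In females Mylk, the smooth muscle light chain kinase, rose (log2 fold change 0.79 ± 0.20 SE) and Mylk4, a further member of the kinase family, fell. In males Mylk had a log2 fold change of 0.59 ± 0.19 (adjusted p = 0.0198 by edgeR), with all treated above all vehicle-treated mice, as for 10.8% of all tested genes. DESeq2 called 7 of the 19 in males, Mylk and Mylk4 added, and limma-voom 6, with Mylk added, and both called the same 2 as edgeR in females. The median log2 fold change of the list was 0.21 in males and 0.11 in females. Mylk4 ranged from 816 to 1730 CPM in vehicle-treated females and from 161 to 333 in corticosterone-treated females, a log2 fold change of -2.02 ± 0.29 (SE, adjusted p = 6.19e-05 by edgeR's quasi-likelihood test, lower in 5 of 5). In males it was -0.87 ± 0.26 (adjusted p = 0.0123), not past the threshold although all treated males lay below all vehicle-treated males, as for 11.1% of all tested genes. The interaction of Mylk4 had an adjusted p of 0.0507 by edgeR. Myom1 rose by 0.79 ± 0.16 and Ppp1cb by 0.64 ± 0.09 on the log2 scale in males, where Calm2 fell by 0.89 on that scale (adjusted p = 0.000624, 1.08e-05 and 6.6e-06 by edgeR).

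The myosin heavy chains, on which the light chains sit, did not pass the test. Of 6 tested, edgeR's quasi-likelihood test, DESeq2 and limma-voom each called 0 in either sex, and with edgeR 2 had an unadjusted p under 0.05 in males and 0 in females. The 4 with the smallest p were Myh3 (log2 fold change 1.81 ± 0.80 SE in males and 1.33 ± 0.76 in females), Myh8 (1.01 ± 0.46 and 0.80 ± 0.47), Myh1 (-0.03 ± 0.62 and 0.94 ± 0.65) and Myh2 (0.39 ± 0.92 and 1.12 ± 0.97). Myh4, the most abundant heavy chain, had a median of 34621 CPM in vehicle-treated and 36651 in corticosterone-treated males, and of 35505 and 25216 in females. Of 8 fast fiber markers, edgeR's quasi-likelihood test called 3 in males and 2 in females, beside 26.3% and 13.4% of all tested genes. The 5 not called in males had log2 fold changes from -0.30 (Tnnc2) to 0.24 (Myh4), and 6 were not called in females. Actn3 (alpha-actinin of fast fibers, log2 fold change 1.61 ± 0.22) and Atp2a1 (the fast calcium pump, 0.81 ± 0.16) rose in males. Pvalb, the fast fiber calcium buffer parvalbumin, fell in both sexes (-0.81 ± 0.21 in males and -1.03 ± 0.22 in females), and Tnnc2, fast troponin C, fell in females (-0.69 ± 0.16). Of 5 smooth muscle markers, edgeR called 1 in each sex, Smtn, which fell in both (-1.10 ± 0.10 in males and -0.87 ± 0.10 in females). The other 4, Myh11, Acta2, Tagln and Cnn1, had log2 fold changes between 0.01 and 0.79 in males and between 0.39 and 0.58 in females, and the list median was 0.03 and 0.41. Des, which encodes the intermediate filament desmin, rose in both, and of the 6 adipocyte and 5 hepatocyte markers edgeR called only Lep between the treatments, higher in females. With edgeR 5 of the 6 adipocyte markers had an unadjusted p under 0.05 in females and 1 in males. DESeq2 and limma-voom also called Fabp4 in females. The median log2 fold change of the adipocyte list was 2.37 in females and -0.17 in males.

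Within groups, the slow genes of the set varied together, and so did most of the fast ones. Each gene's deviations of log2 CPM from its group mean were correlated over the 23 mice as a description, in which all points share the library and its scaling. Myl2 and Myl3 went together (Pearson r 0.87), and Mybpc1 went with Myl2 (0.72). Myl1 went with Mylpf (0.77) and both with Mybpc2 (0.61 and 0.62). Mybpc1 ran against Mybpc2 (-0.64) and Mybph (-0.65). Of 4 heavy chains, the closest was Myh7 for Myl2 (0.94), Myh2 for Myl3 (0.86), Myh1 for Mybpc1 (0.87) and Myh4 for Mybpc2 (0.92). Myh1, like Myh4, was listed among the fast fiber markers, so the slow genes of the set did not go with slow fiber genes alone. Mylk2 and Mybph were near 0 with each other (0.02).

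**Figure D5:**
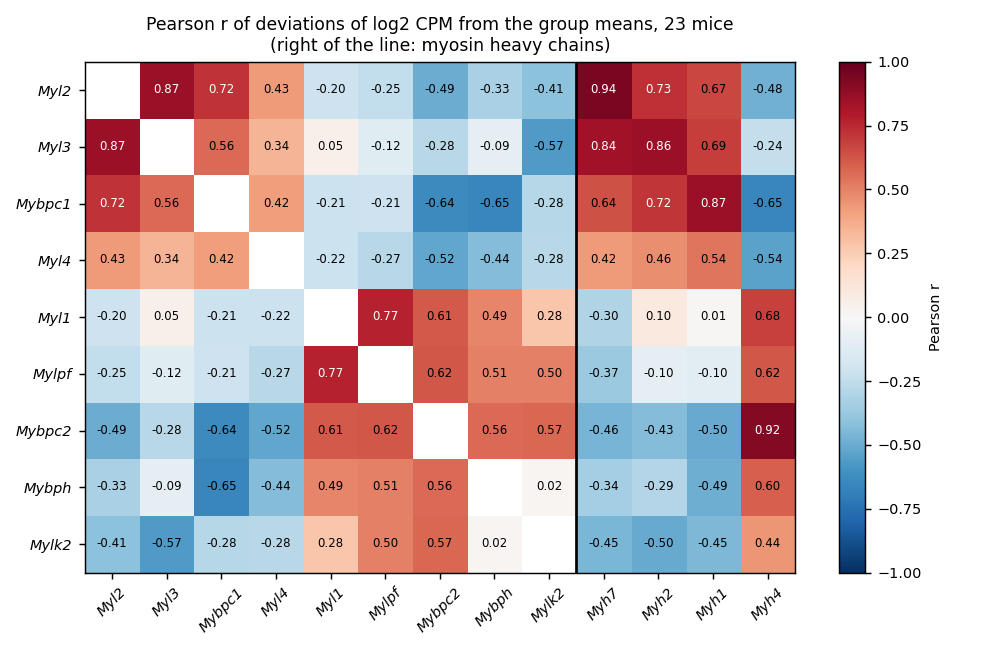
Pearson r of each pair of genes, from deviations of log2 CPM from the group means over 23 mice, with 4 myosin heavy chains to the right of the line. Myl2, Myl3 and Mybpc1 form a block with Myh7, Myh2 and Myh1, and Myl1, Mylpf, Mybpc2 and Mybph a block with Myh4.

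Over all tested genes outside the set, those with deviations most like each member's were named. For Myl2 they were Tnnt1 (r 0.98), Tnni1 (0.96) and Tnnc1 (0.95), and for Myl3 Myoz2 (0.96), Csrp3 (0.95) and Inpp4b (0.94). For Mylpf they were Tmem38a, Tnnc2 and Hfe2 (0.94, 0.94 and 0.93), and for Mybpc2 B3galnt2 (0.97), Spast (0.93) and Myh4 (0.92). Myl1 had its pseudogene Mylf-ps (0.96), Pkdcc (0.93) and Scmh1 (0.92), and Mybpc1 had Rmdn1 (0.92), Plpbp (0.90) and Gm11716 (0.90). The likeness was weaker for Mylk2 with Gprc5c, Cldn12 and Aaed1 (0.84, 0.84 and 0.83), for Mybph with Tesk1, Gm32856 and Tmem132b (0.84, 0.84 and 0.83), and for Myl4 with Dio2, Tm2d3 and Traf3 (0.75, 0.75 and 0.73).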

How the data were processed

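RNA of quadriceps from 23 mice was sequenced as stranded, paired-end mRNA libraries. The authors aligned reads to mm10 with STAR 2.7.3a and counted uniquely assigned read pairs per gene, by strand, with HTSeq 0.12.4, and the deposited values are these raw counts without normalization. The 5 summary entries, 10.7% to 15.3% of read pairs, were left out. GENCODE M21 (GRCm38) named 55480 of 55573 gene IDs. Counts were tested in R 4.3.3 with edgeR 4.0.16 (TMM, quasi-likelihood test, 1 model with a mean for each of 4 groups, 13049 genes past the study's minimum of over 20 normalized counts in 4 or more mice of a group, Benjamini-Hochberg adjustment, threshold 0.01), and the code was tested on simulated data. DESeq2 1.42.0, limma-voom (limma 3.58.1), other filters and scalings, a replicate block and fits leaving out each mouse were alternatives. Log2 CPM used a prior count of 1. Replicates are separate mice, and no pair agreed within sampling noise (lowest chi-square per degree of freedom 15.1). The 9 genes and all lists were chosen with earlier results of these data known. Named beside the 9 genes were the 4 genes with the smallest p of the relatives, heavy chain, slow and fast lists, the 3 genes most like each member, list members that were called, and Myh4, Myh7 and the slow troponins, chosen after their values were seen.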

Additional observations from a re-analysis of the deposited data

How the results depend on the processing

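The 4 calls of the report (Myl1 lower in males and in females, Mybph higher in males, and Mylk2 higher in males than in females with corticosterone) were kept under every alternative run, except that Mylk2 was lost (0 of the 9 genes called, log2 difference 0.88) without M8, F10, M9, M12 and F6, a setting chosen after seeing the data. Myl1 lay between -2.10 and -1.72 in males and between -2.08 and -1.38 in females on the log2 scale, and Mybph between 1.95 and 2.56 in males. Of the 41 results on single genes that were not called, 14 changed sign under at least 1 alternative and 5 were called under at least 1, and 0 calls reversed. Mylk2 in males was called when both male groups were fitted alone. For the interaction, the number called was 0 with edgeR's quasi-likelihood test, 1 with DESeq2 (Mylk2), and 2 at an adjusted p of 0.05 or with the replicate block (Mylk2 and Mybph). For males against females with vehicle it was 0, but 1 (Mybph) with DESeq2, with limma-voom, at 0.05, with the replicate block, and without M1, the range over fits leaving out 1 mouse being 0 to 1. For males against females with corticosterone it was 1, but 2 with the replicate block and without F4 (Mylk2 and Mybpc2), the range being 1 to 2. The cause was not tested. The labels do not say whether a replicate number pairs a male with a female. Of 11 such pairs, 7 had deviations correlated above 0.1 (lowest -0.38, highest 0.48). With vehicle the r ran from 0.08 to 0.48, and with corticosterone from -0.38 to 0.24. What mice of 1 number share was not tested. Each number belongs to 1 treatment, so the block could not be fitted within a sex. With 5 or 6 mice a group, the wide spread of Myl2 and Myl3 leaves 95% intervals of several log2 units.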

Other observations

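Over 36 sets of 1 gene in 1 group, 0 had a mouse that stood apart by Dixon's test. F4 had the highest Myl1, Mylk2 and Mybpc2 levels of the 5 corticosterone-treated females, at 7890, 1119 and 8359 CPM, and F10 the lowest Mylk2, Mybpc2, Mylpf and Mybph levels, at 575, 1958, 6293 and 382 CPM.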
